A study of Mus musculus with 4 samples.

Results

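The nuclear genes for the subunits of oxidative phosphorylation were followed across 4 pools of mouse colon RNA, each measured on 1 single-colour Agilent array. Genes were taken by name: those whose symbol in the array files begins with Ndufa, Ndufb, Ndufc, Ndufs or Ndufv and a digit, with Cox4 to Cox8, with Atp5 or with Uqcr, and Sdha, Sdhb, Sdhc and Sdhd. Of 85 such genes on the array, 83 had a probe well above background on all 4 arrays, out of 19353 genes of any name that met that condition. Cox7b2 and Cox8c, which encode testis forms of cytochrome c oxidase subunits, were not well above background on any array. The 83 genes comprise 73 subunits of the 5 complexes (35 of complex I, 4 of complex II, 8 of complex III, 11 of complex IV and 15 of complex V), 6 tissue-restricted isoforms (Cox4i2, Cox6a2, Cox6b2, Cox7a1, Cox8b and Ndufa4l2) and 4 others that share the naming (Cox7a2l, Atp5s, Atp5sl and the pseudogene Atp5c1-ps).

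Respiration in mitochondria passes electrons from NADH through complex I, and from succinate through complex II, to coenzyme Q, then through complex III and cytochrome c to complex IV, which reduces oxygen. The proton gradient built by complexes I, III and IV drives complex V, the ATP synthase. Most subunits are encoded in the nucleus and a small core in the mitochondrial genome. Colonic epithelium depends heavily on this pathway, because its absorptive cells oxidise butyrate made by gut bacteria.

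The mice were C57BL/6 males, listed as 9 weeks old in the sample labels. They were either wild type (WT) or carried the Pla2g10-/- deletion (X-KO in the labels, here KO) of the secreted group X phospholipase A2. A naive pool and a colitis pool were made from each genotype, the latter after drinking water with 1% (w/v) dextran sulfate sodium (DSS), collected on day 7. DSS is a detergent-like polysaccharide that injures the colonic epithelium. Each pool mixed 3 colons into 1 RNA, so every group has 1 array and no spread between mice was measured. Whole colon was used, and fewer cells of a type and less RNA per cell cannot be told apart in it. All values below are relative signals, that is, the processed signal of a probe divided by the 75th percentile of the non-control probes of the same array and ratios between pools are on the log2 scale. Probe positions are those of the array's annotation (mm9).

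On the 4 arrays, between 67.7% and 70.4% of probes were well above background and none was saturated. Repeat spots of one probe had a median standard deviation of 0.0635 or less on each array (log2, 312 probes). Pla2g10 itself had relative signals of 15.9 and 19.1 in the naive and DSS pools of WT, and of 1.70 and 0.997 in those of KO. It was lower in both pools labelled KO, although the labels do not say which exons were deleted. Of the epithelial markers (Epcam, Cdh1, keratins and the like), 12 of 12 were well above background in all pools.

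In WT colon, nearly all nuclear oxidative phosphorylation genes were higher after DSS. The ratio of DSS to naive was above 0 for 77 of 83 genes (92.8%), beside 47.9% of all 19353 genes. The median was 0.38 (1.30-fold) for the set against -0.02 over all genes. In KO colon the 83 genes lay near their naive level or slightly below it. There 59 of 83 (71.1%) were below 0, beside 61.5% of all genes, with a median of -0.10 against -0.12 for all genes. WT DSS was therefore the pool with the highest signal for 74 of 83 genes (89.2%), whereas it was the highest for 30.5% of all genes. WT naive was the lowest pool for 54 of the 83 (65.1%), beside 20.6% of all genes. KO DSS was the lowest for 26 (31.3%), beside 38.5% of all genes.

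These shifts have to be read beside a trend with signal strength that involved the whole array. Oxidative phosphorylation probes are bright, and bright probes of any function shifted in the same direction. For genes outside the set with a relative signal from 32 to 64, the median WT ratio was 0.25, whereas genes between 0.125 and 1 had a median of -0.10. A comparison set of 926 other genes within the middle range of the oxidative phosphorylation probes (relative signal 15.9 to 41.9) had a median of 0.25 for the WT ratio, -0.02 for that of KO, 0.09 for KO over WT in naive colon and -0.20 for KO over WT with DSS. WT DSS was the highest pool for 69.7% of that set, WT naive the lowest for 48.2% and KO DSS the lowest for 32.9%. In the same set 80.7% of genes were above 0 for the WT ratio and 53.0% below 0 for that of KO. Thus the excess of the oxidative phosphorylation genes was 0.40 over all genes in WT but 0.13 over genes of like brightness, and 0.18 when the arrays were quantile normalized, which aligns the signal distributions of the 4 arrays. How much of the shift reflects this trend was not tested.

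**Figure D1:**
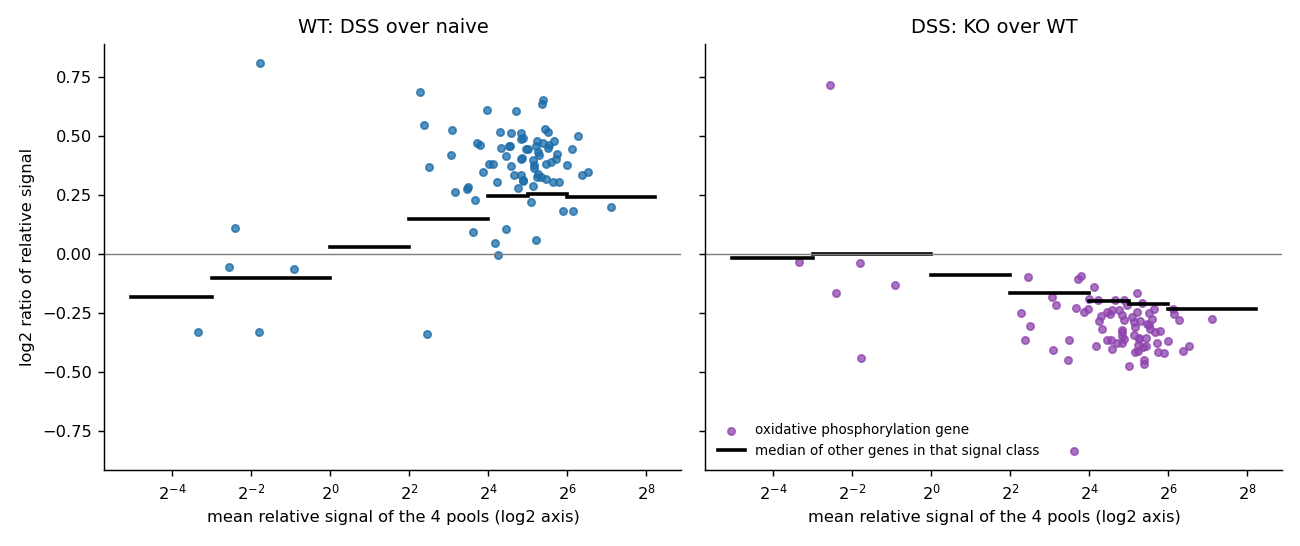
Log2 ratio against the mean relative signal of the 4 pools (log2 axis) for the 83 genes, WT DSS over WT naive on the left and KO over WT with DSS on the right. Each point is 1 gene, and black bars give the median of all other genes in a class of signal: in WT these bars climb from -0.18 in the dimmest class to 0.25 between 32 and 64, and most points lie above them.

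At least 1.5-fold higher in WT with DSS were 6 of 83 genes (Ndufs8, Ndufb6, Ndufc1, Uqcrq, Atp5k and Cox8b), beside 6.94% of all genes, and 0 were at least 1.5-fold lower, beside 11.8%. In KO, Ndufa4l2 alone was at least 1.5-fold higher (8.97% of all genes) and Cox6a2 and Cox7a1 were at least 1.5-fold lower (14.8%). At least 25% higher in WT were 56 of 83 genes (67.5%), beside 19.0% of all genes and 33.6% of those of like brightness. In KO, 6 were at least 20% lower, beside 31.7% of all genes. The quartiles of the WT ratio were 0.29 and 0.46. The count at 1.5-fold depended on the scaling, and the 6 genes became 30 with median scaling and 1 with quantile normalization.

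With 1 array per group a single ratio carries no test. A linear model with a term for DSS and a term for genotype over the 4 arrays (limma, 1 residual degree of freedom, Benjamini-Hochberg over 22208 genes well above background on at least 1 array) called 0 of the 83 genes for either term. It called 0.0% of all genes for DSS and 0.0% for genotype. The smallest adjusted p among the 83 was 0.28 for DSS (Ndufs8, 0.53 ± 0.18 SE, log2, higher in both genotypes), and 0 of the 83 had an unadjusted p under 0.05, beside 4103 of all genes. Fitted on the 19353 genes well above background on all arrays, the model called 5.74% of genes for DSS and 0.0% for genotype, and with a trended, robust variance 6.9% and 0.0315%. The count among the 83 was 0 in each of these fits. The number of arrays limits what this fit can show. On simulated data it recovered 0% of genes given a log2 effect of 1 or 2, for DSS and for genotype. At a log2 effect of 4 it recovered 72% for DSS and 66% for genotype. A count of 0 therefore says little about shifts of the size seen here. The fit also assumes the same DSS effect in both genotypes, which is the comparison where the 83 genes differed most.

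**Figure D2:**
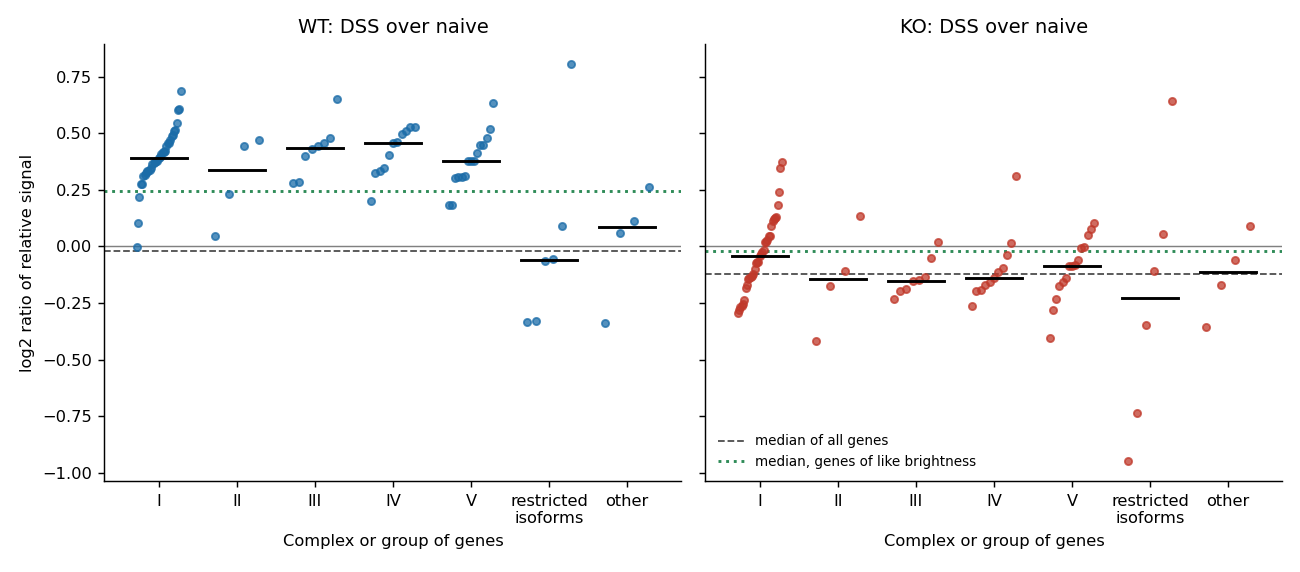
Log2 ratio of DSS over naive in WT (left) and KO (right) for each of the 83 genes, grouped by complex or group. Each point is 1 gene and the black bar is the group's median, the dashed line is the median of all genes (-0.02 in WT, -0.12 in KO) and the dotted line that of genes of like brightness (0.25 and -0.02): the WT medians of complexes I to V lie between 0.34 and 0.46, those in KO between -0.15 and -0.04.

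All 5 complexes had a similar profile across the pools. The WT medians were 0.39 for complex I, 0.34 for complex II, 0.44 for complex III, 0.46 for complex IV and 0.38 for complex V. The KO medians were -0.04, -0.14, -0.15, -0.14 and -0.09 in the same order. Medians in WT were above 0 for every complex under each other scaling tried, while in KO those of complexes I and V were 0.03 and 0.01 after quantile normalization. The range among genes within a complex was wider than the range among complexes, so no complex stood apart.

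**Figure D3:**
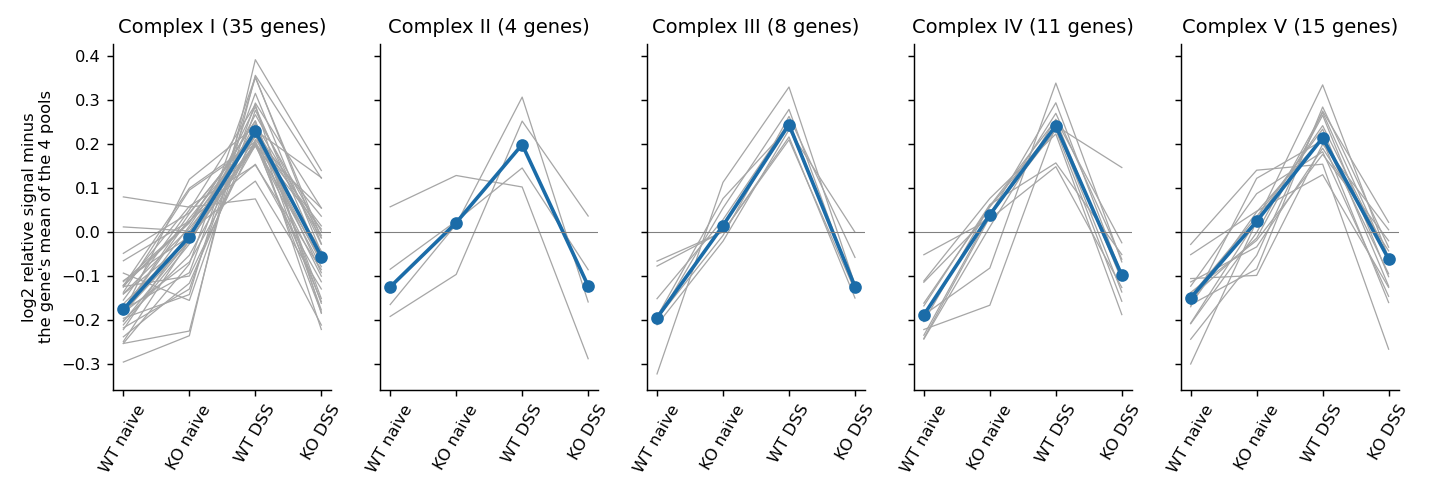
Log2 relative signal of each subunit minus that gene's own mean over the 4 pools, by complex. Grey lines are genes and the blue line is the median of the complex: WT DSS is the highest pool for 34 of 35 genes of complex I, 3 of 4 of complex II, and all 8, 11 and 15 genes measured of complexes III, IV and V.

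Complex I takes electrons from NADH, and its nuclear core subunits carry the flavin and the iron-sulfur clusters. Ndufs8, an iron-sulfur core subunit (probe at chr19:3911177-3911236, mm9), had relative signals of 3.94, 4.11, 6.34 and 5.33 in WT naive, KO naive, WT DSS and KO DSS. Both DSS pools were above both naive pools, with ratios of 0.69 in WT and 0.37 in KO. Ndufb6, an accessory subunit of the membrane arm, had relative signals of 13.2, 13.5, 20.2 and 17.1 in the same order of pools, and ratios of 0.61 and 0.35. Ndufs4, an accessory subunit needed for a stable complex, stood at 11.2, 12.1, 15.4 and 14.3. These 3 were named for having the highest mean DSS ratios of complex I. For each, both DSS pools were above both naive pools, an order that the choice by that mean favours.

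At the other end of complex I stood Ndufs1, the largest iron-sulfur core subunit (chr1:63190360-63190419, mm9), with 19.9, 19.6, 19.9 and 16.3 in WT naive, KO naive, WT DSS and KO DSS. Only KO DSS stood apart among the 4 values. Ndufa6, an accessory subunit that binds the mitochondrial acyl carrier protein, had 21.9, 21.8, 23.6 and 19.9. Ndufa9, an accessory subunit that binds NADPH, had 10.6, 11.3, 12.9 and 9.44. For Ndufa6 and Ndufa9 the WT DSS pool was the highest and the KO DSS pool the lowest. Ndufv1, which holds the NADH site, had one of the widest gaps between the DSS pools, at 28.9, 33.3, 39.2 and 28.3, a KO over WT ratio of -0.47 with DSS. The 7 core subunits had a median WT ratio of 0.38 and the 28 accessory subunits 0.39, while in KO the medians were -0.17 and -0.04.

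Complex II is both an enzyme of the citric acid cycle and an entry point to the chain, and all of its subunits are nuclear. Sdha, the flavoprotein that oxidises succinate (chr13:74460310-74460369, mm9), had 18.7, 19.6, 19.3 and 14.7 in WT naive, KO naive, WT DSS and KO DSS. The first 3 pools were close together and KO DSS was lower, with a ratio to KO naive of -0.42 (1.33-fold), the lowest of the 73 subunits. Its WT ratio of 0.05 was -0.17 after quantile normalization. Sdhb, the iron-sulfur subunit, had 37.1, 42.1, 51.5 and 37.3, and Sdhc, one of the membrane anchors, 12.0, 12.9, 14.0 and 11.9. Sdhd, the other anchor, had 27.0, 28.8, 36.7 and 31.6, so that both DSS pools were above both naive pools. The 4 proteins work in 1 complex in equal numbers, yet the KO ratios of their genes ran from -0.42 to 0.13.

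Complex III passes electrons from coenzyme Q to cytochrome c. Its core proteins Uqcrc1 and Uqcrc2 had the lowest mean ratios of the complex. Uqcrc1 had 10.7, 11.2, 13.0 and 10.1 in WT naive, KO naive, WT DSS and KO DSS. Uqcrc2, printed in 10 spots on each array, had 33.4, 35.3, 40.7 and 32.1, with a standard deviation among spots between 0.06 and 0.08 (log2). Its WT ratio of 0.29 was therefore larger than the spotting error, which says nothing of the spread between mice. Uqcrh, the hinge protein beside cytochrome c1, had 60.4, 68.9, 82.1 and 69.9. Uqcrq, a small subunit that contacts cytochrome b (chr11:53242451-53242510, mm9), had 33.7, 45.5, 52.9 and 38.7. Uqcrq had the largest KO over WT ratio in naive colon among the 83 genes, 0.43, and a ratio of -0.45 with DSS.

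Complex IV, cytochrome c oxidase, surrounds a mitochondrially encoded core with nuclear subunits. Cox6a1 had 134, 141, 153 and 127 in WT naive, KO naive, WT DSS and KO DSS. Cox4i1, the common form of the largest nuclear subunit, had 76.8, 87.4, 96.8 and 72.8, and Cox8a had 85.0, 94.5, 108 and 82.5. For these 3, which had the lowest mean ratios of the complex, KO DSS was the lowest pool. Cox5a had 65.0, 77.5, 91.8 and 75.6, and Cox6b1, which clamps the dimer, 7.47, 8.04, 10.8 and 8.12. Ndufa4, once assigned to complex I and now counted as a subunit of complex IV, had 12.0, 12.4, 16.5 and 15.4. It was the only gene of the complex with a KO ratio above 0.02, at 0.31, and both of its DSS pools were above both naive pools.

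Complex V joins a catalytic F1 head to a membrane ring through central and peripheral stalks. Of the F1 subunits, Atp5a1 (alpha) had 58.3, 65.5, 66.2 and 49.5 in WT naive, KO naive, WT DSS and KO DSS, and Atp5b (beta, which carries the catalytic sites) 68.2, 72.99, 77.3 and 64.7. Atp5g2, one of the 3 genes for the c ring, had 50.7, 58.7, 62.7 and 49.9. In all 3, KO DSS was the lowest pool. Atp5e (epsilon, of the central stalk) had 38.5, 44.0, 55.2 and 46.3, and Atp5o, which joins head and peripheral stalk, 17.9, 18.9, 24.4 and 19.6. Atp5k, subunit e of the membrane part, which takes part in dimer formation (chr5:108862263-108862322, mm9), had 33.2, 41.6, 51.5 and 39.3. Its 2 further probes gave WT ratios of 0.56 and 0.70 beside 0.63. The 3 lowest mean DSS ratios among the 73 subunits were those of Sdha, Ndufs1 and Atp5a1, each in the catalytic part of its complex. This resemblance was seen in the values and not tested. It was not general, since Ndufs8, another iron-sulfur core subunit, was among the 3 highest of complex I.

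WT DSS was the highest pool for 1 of the 6 tissue-restricted isoforms (Cox8b), beside 30.5% of all genes. It was the highest for all 6 of their common counterparts, beside 69.7% of the comparison set of like brightness. Cox7a1, the form of heart, skeletal muscle and brown fat (chr7:30970337-30970948, mm9), had 13.1, 15.2, 14.0 and 7.85 in WT naive, KO naive, WT DSS and KO DSS. KO DSS was 1.93-fold below KO naive (-0.95) and 1.78-fold below WT DSS, the lowest ratio of the set in both comparisons, whereas its counterpart Cox7a2 had 23.9, 28.9, 34.0 and 27.1. Cox6a2, the muscle form of Cox6a1, had 0.103, 0.134, 0.0822 and 0.0804, so both DSS pools were below both naive pools. Cox4i2, the form known for its induction by low oxygen in lung, had 0.324, 0.318, 0.257 and 0.250, also lower in both DSS pools. Cox6b2, a testis form, had 0.562, 0.529, 0.538 and 0.490, with little difference among pools. Cox8b, a muscle and brown fat form, had 0.226, 0.280, 0.396 and 0.291, with WT DSS highest at 1.75-fold over WT naive. Ndufa4l2, a target of hypoxia-inducible factor related to Ndufa4, had 0.151, 0.153, 0.145 and 0.238. For Ndufa4l2 the KO DSS pool stood apart from 3 nearly equal pools, at 1.56-fold over KO naive and 1.64-fold over WT DSS. Except for Cox7a1, these isoforms gave relative signals under 1. Genes outside the set had a median WT ratio of -0.10 at signals from 0.125 to 1 and of -0.18 below 0.125. The part of this trend in the contrast between isoforms and counterparts was not tested.

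**Figure D4:**
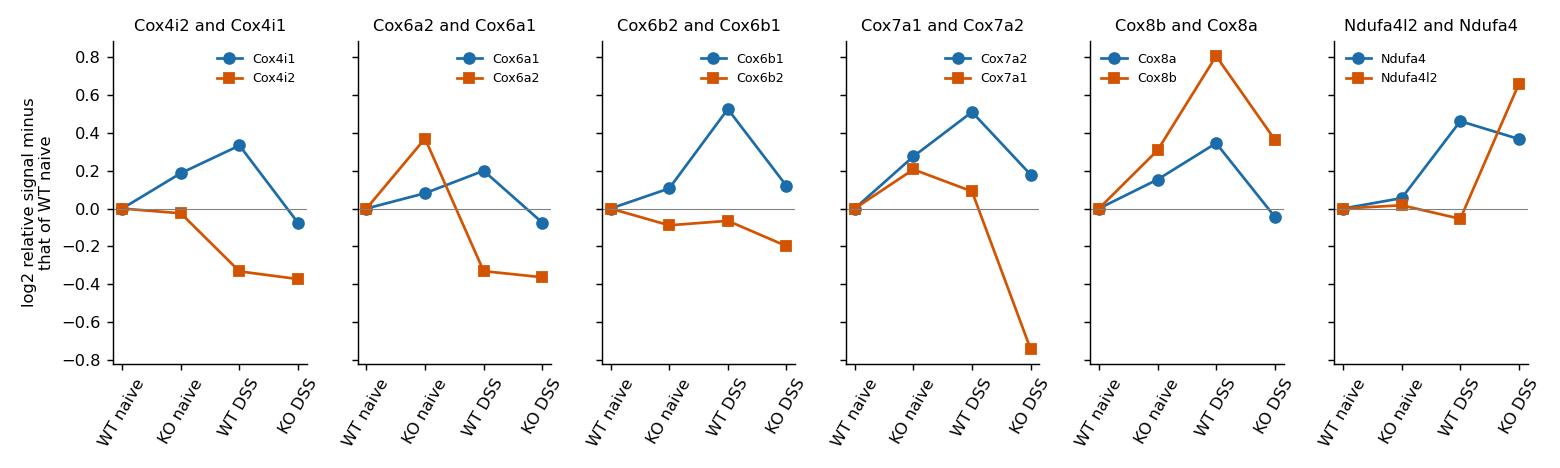
Log2 relative signal in each pool minus that in WT naive for the 6 tissue-restricted isoforms (orange squares) and their common counterparts (blue circles). All 6 counterparts are highest in WT DSS; Cox7a1 ends at -0.74 in KO DSS, and Ndufa4l2 is highest in KO DSS.

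Marker genes of other tissues are set beside these isoforms. Of 15 skeletal muscle markers, 10 were well above background in all pools (Actn3, Casq1, Myh2, Myh4 and Mylpf were not), and their summed relative signal was 5.95, 8.13, 4.74 and 2.77 for WT naive, KO naive, WT DSS and KO DSS. This is the order of pools seen for Cox7a1 with WT naive and WT DSS exchanged, and 10 of 10 were lower in KO DSS than in KO naive (median -1.56; Myh1, a fast myosin, -4.46). Of 11 smooth muscle markers, 11 were lower in KO DSS than in KO naive, with sums of 336, 327, 312 and 192. Of 10 adipocyte markers, 8 were measured (Lep and Ucp1 were not), with sums of 7.85, 8.61, 33.1 and 32.8. Both DSS pools were thus high, whereas Cox8b was high in WT DSS and in KO DSS stood near its KO naive level. The part of these tissues in the values of Cox7a1, Cox6a2 and Cox8b was not tested.

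Promoters of these genes are shown because the set varies together across the pools and is known as a target of shared factors, and because Sdha and Sdhd, of 1 complex, and Cox7a1, a restricted isoform, had different profiles. RefSeq windows (GRCm38.p6) from 250 bases before to 50 after the gene's start were matched by current symbol for 68 of the 83 genes and searched on both strands. The core of the NRF1 motif (TGCGCA) was held by 18 of 68 windows (26.5%) and 8.06% of all 27025 windows, and the ETS motif bound by GABPA (CCGGAAG) by 15 (22.1%) and 9.12%. The YY1 motif AAGATGGCG was held by 7 (10.3%) and 1.49%, in each on the transcript's strand and at a median position of 277 from the 5′ end, that is, after the start. The estrogen-related receptor motif AAGGTCA was held by 8 (11.8%) and 4.66%, and the Sp1 box GGGCGG by 27 (39.7%) and 35.9%. The 18 genes with the NRF1 core had median ratios of 0.33 in WT and -0.13 in KO, and the 50 without it 0.42 and -0.08. The other motifs differed in direction. Medians in WT with and without the motif were 0.45 and 0.38 for ETS and 0.36 and 0.41 for YY1. They were 0.50 and 0.39 for the estrogen-related receptor motif and 0.40 and 0.41 for Sp1. In KO they were -0.09 and -0.09, -0.12 and -0.09, -0.01 and -0.11, and -0.07 and -0.09 in that order. The 250 bases before the start are printed 5′ to 3′ on the transcript's strand, with matches to any of the 5 motifs in capitals, for Ndufb6 (minus strand, chr4:40279422-40279671), Sdha (minus strand, chr13:74350241-74350490), Sdhd (minus strand, chr9:50603850-50604099) and Cox7a1 (plus strand, chr7:30183921-30184170).
Ndufb6: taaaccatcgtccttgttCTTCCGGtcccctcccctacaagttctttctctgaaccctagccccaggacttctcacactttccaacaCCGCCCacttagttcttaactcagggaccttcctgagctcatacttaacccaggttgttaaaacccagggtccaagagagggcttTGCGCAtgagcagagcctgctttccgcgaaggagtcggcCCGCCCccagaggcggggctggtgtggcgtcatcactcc
Sdha: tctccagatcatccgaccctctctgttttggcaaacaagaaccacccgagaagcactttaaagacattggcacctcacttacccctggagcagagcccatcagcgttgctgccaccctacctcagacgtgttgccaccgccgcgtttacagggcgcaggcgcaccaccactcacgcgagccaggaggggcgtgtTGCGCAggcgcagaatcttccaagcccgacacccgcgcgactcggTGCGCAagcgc
Sdhd: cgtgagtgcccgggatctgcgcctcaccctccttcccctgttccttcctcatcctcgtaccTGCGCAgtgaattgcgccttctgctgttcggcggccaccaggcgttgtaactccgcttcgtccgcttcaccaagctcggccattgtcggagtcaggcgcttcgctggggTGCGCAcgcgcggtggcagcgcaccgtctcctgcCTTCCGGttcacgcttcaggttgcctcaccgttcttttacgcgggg
Cox7a1: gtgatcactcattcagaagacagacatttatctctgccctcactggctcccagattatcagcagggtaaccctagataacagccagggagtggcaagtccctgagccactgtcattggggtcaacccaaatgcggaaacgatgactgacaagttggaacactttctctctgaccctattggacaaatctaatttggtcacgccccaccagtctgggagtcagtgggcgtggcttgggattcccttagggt
Ndufb6, highest in WT DSS and above its naive level in both genotypes, held 4 matches in these bases (1 NRF1 core, 1 ETS and 2 Sp1). Sdha and Sdhd each held 2 NRF1 cores in them, and Sdhd an ETS match besides. Over the whole window, to 50 bases after the start, Sdhd held 4 of the 5 motifs. These were the NRF1, ETS, estrogen-related receptor and Sp1 motifs, whereas Sdha held only the NRF1 core. The ratios in KO were -0.42 for Sdha and 0.13 for Sdhd. Cox7a1 held 0 of the 5 motifs there. A match is a description of letters and shows no binding.

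Among the others, Cox7a2l had 36.8, 38.4, 38.3 and 34.1 in WT naive, KO naive, WT DSS and KO DSS. It is described as a factor that joins complexes III and IV into supercomplexes, a role not measured in these mice. Atp5sl (now Dmac2), an assembly factor of the membrane arm of complex I, had 6.34, 6.00, 5.02 and 4.69, lower in both DSS pools. Neither had the WT excess of the subunits. Atp5s had between 0.179 and 0.200, and Atp5c1-ps had 8.57, 8.30, 10.3 and 8.85, with WT DSS the highest as for most subunits.

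The 2 genotypes stood in opposite order in naive and DSS colon. In naive colon the KO over WT ratio was above 0 for 76 of 83 genes, with a median of 0.15 (1.11-fold) against 0.02 for all genes and 0.09 for genes of like brightness. With DSS it was below 0 for 82 of 83 genes. Its median was -0.30 (1.23-fold lower in KO) against -0.08 for all genes and -0.20 for genes of like brightness. Of all genes, 54.6% were above 0 in naive colon and 61.4% below 0 with DSS. Among genes of like brightness these shares were 81.6% and 87.0%. In naive colon 0 of 83 were at least 1.5-fold higher in KO (2.26% of all genes) or at least 1.5-fold lower (1.07%), and 3 of 83 were at least 25% higher (Uqcrq, Cox6a2 and Atp5k, beside 8.34% of all genes). With DSS, Ndufa4l2 was at least 1.5-fold higher in KO (8.94% of all genes) and Cox7a1 at least 1.5-fold lower (4.36%), while 35 of 83 (42.2%) were at least 20% lower, beside 16.5% of all genes and 21.0% of those of like brightness. The lowest ratios with DSS after Cox7a1 belonged to Ndufv1 (-0.47) and Sdhb (-0.46). After Ndufa4l2 the highest were Cox6a2 (-0.03) and Cox4i2 (-0.04). In naive colon the lowest were Cox6b2 (-0.09), Atp5sl (-0.08) and Ndufa10 (-0.06).

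Set gene by gene, the WT ratio of DSS to naive was above the KO ratio for 82 of 83 genes. The same order was seen for 11610 of all 19353 genes and for 846 of 926 genes of like brightness. Most bright genes outside the set thus shared it. In 54 of the 83 genes the WT ratio was above 0 and the KO ratio below, and in 23 both were above. In 5 both were below, and in 1 (Ndufa4l2) WT was below and KO above. The difference of the ratios, KO minus WT, had a median of -0.44 against -0.09 for all genes and -0.30 for genes of like brightness. No test of this difference is possible with 1 array per group. Across genes the WT and KO ratios, which share no array, had a Pearson correlation of 0.45 over the 83 genes and 0.66 over all 19353. Genes are not independent replicates, and all ratios of a genotype share the same 2 arrays.

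Probes to one gene mostly gave the same ratios. For 27 of the 83 genes with over 1 probe, the median gap between the highest and lowest probe was between 0.07 and 0.11 in the 4 comparisons. Probes that pointed in opposite directions with a gap over 1.5-fold belonged to Atp5g1, a c ring gene, whose brightest probe had 45.8, 48.4, 56.5 and 48.1 in WT naive, KO naive, WT DSS and KO DSS and whose other probe had 6.04, 6.82, 3.90 and 4.92. Their WT ratios were 0.30 and -0.63, so the direction for Atp5g1 is not settled. Smaller gaps with a change of sign, noted after their values were seen, were those of Ndufb11 (WT ratios of 0.22, 0.33 and -0.17) and Ndufv3 (0.46, 0.12 and -0.11), where the negative value came from the dimmest probe. A dim probe of Ndufa3, noted after its values were seen, had a WT ratio of 1.74 beside 0.40 for the bright one. Many of these genes have processed pseudogenes, and 9 of the 83 have 1 named for them in RefSeq, whose transcripts a probe may also bind.

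The subunits encoded in the mitochondrial genome did not follow the nuclear ones in WT colon. Of 13 such genes 8 were lower and 5 higher in WT DSS than in WT naive, with a median of -0.15, and 13 of 13 were lower in KO DSS than in KO naive, with a median of -0.45. Nuclear genes stood at 0.38 and -0.10, and the mitochondrial median was below the nuclear one in both genotypes under every scaling tried (-0.34 and 0.16 in WT after quantile normalization). ND4L, a membrane subunit of complex I, had 34.8, 36.2, 22.9 and 22.7 in WT naive, KO naive, WT DSS and KO DSS, and ND5, a proton-pumping subunit, 18.6, 17.0, 12.6 and 12.5. For both, the DSS pools were well below the naive pools in each genotype. CYTB, the cytochrome b of complex III, had 141, 150, 125 and 110, and COX1, the catalytic subunit of complex IV, 153, 177, 165 and 141. KO over WT with DSS had a median of -0.22, which was 0.00 after quantile normalization. The array's annotation places 7 of the 13 probes on the mitochondrial genome and 6 on chromosome 1, which holds a nuclear copy of it.

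Of the nuclear genes outside the name pattern, 5 of the same machinery resembled the set. Assembly factors and mitochondrial ribosomal proteins were higher in WT as well, but their KO medians were above 0. Cytochrome c (Cycs) had 32.6, 36.6, 53.4 and 42.8 in WT naive, KO naive, WT DSS and KO DSS, and 5 of 5 such genes (with Cyc1, Ndufab1, Usmg5 and 2010107E04Rik) were higher in WT DSS, with a median of 0.55, and a median of 0.01 in KO. Of 34 measured assembly factors, 31 were higher in WT (median 0.22) and 21 in KO (0.06), among them Ndufaf6 with ratios of 0.59 and 0.44. For KO over WT in naive colon, 25 of the 34 were below 0 (median -0.04), unlike the set. Of 76 mitochondrial ribosomal proteins, which build the subunits encoded in the mitochondrial genome, 75 were higher in WT (0.41) and 65 in KO (0.19). The ribosomal proteins of mitochondria thus stood above 0 in both genotypes, and their median in KO, unlike that of the respiratory subunits, was above 0 under each scaling tried.

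Most pathways that feed the chain had medians nearer 0 than the set in WT and below 0 in KO. Of 19 genes of the citric acid cycle and pyruvate dehydrogenase, 15 were above 0 in WT (median 0.11, but -0.08 after quantile normalization) and 17 below 0 in KO (-0.18). Citrate synthase (Cs) had 58.3, 64.9, 58.8 and 40.2 in WT naive, KO naive, WT DSS and KO DSS, so that KO DSS alone was low, as for Sdha. Of 18 genes of fatty acid and butyrate oxidation, 17 were below 0 in KO (-0.33), with -0.72 for Hadh, and the WT median was 0.12 (-0.02 after quantile normalization). Of 11 genes of coenzyme Q synthesis, 7 were above 0 in WT (0.23) and 7 below 0 in KO (-0.05). Of 15 glycolytic genes, 12 were above 0 in WT (0.24, but -0.02 after quantile normalization) and 9 below 0 in KO (-0.16). Pfkfb3, which makes the activator of phosphofructokinase, had ratios of 1.24 and 1.71.

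The regulators known to drive expression of these genes did not, as a group, share the WT profile. Ppargc1a, the coactivator PGC-1alpha, had 2.81, 2.99, 1.47 and 1.11 in WT naive, KO naive, WT DSS and KO DSS, and Ppargc1b 0.696, 0.693, 0.406 and 0.391. Both were lower in both DSS pools. Esrrg, a nuclear receptor that acts with them, had 0.157, 0.169, 0.0682 and 0.0229. Of 18 regulators 11 were below 0 in WT (median -0.15) and 7 above, and 13 were below 0 in KO (-0.22). Of all genes, 52.1% were below 0 in WT and 61.5% in KO. Esrra had 17.9, 19.2, 20.0 and 16.7 in the same order of pools, with WT DSS the highest as for most subunits. Ppargc1a and Ppargc1b were also dimmer than the subunits. Genes outside the set had a median WT ratio of 0.03 at signals from 1 to 4 and of -0.10 from 0.125 to 1. The part of these regulators in the values of the subunits was not tested. In the linear model (limma), which called 0 of 22208 genes for DSS or genotype, 0 genes of these lists were called.

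Summed signals of cell markers are given beside these results. The 12 epithelial markers had summed relative signals of 429, 501, 520 and 423 for WT naive, KO naive, WT DSS and KO DSS, with WT DSS the highest pool, as it was for 74 of the 83 genes. They had medians of 0.26 in WT, -0.20 in KO, 0.17 for KO over WT in naive colon and -0.26 with DSS. After quantile normalization these were 0.07, -0.03, 0.05 and -0.07. The 14 measured absorptive colonocyte markers (Ms4a12 was not measured) summed to 589, 664, 626 and 419, and 14 of 14 were lower in KO DSS than in KO naive (median -0.71). In WT, 7 of these 14 were above 0 and 7 below, with a median of 0.01 (-0.21 after quantile normalization). For Slc26a3, the chloride-bicarbonate exchanger, the values were 23.4, 20.2, 10.1 and 5.01. The 14 measured leukocyte markers (S100a8 was not) summed to 58.0, 67.8, 56.0 and 98.6, of which Csf3r, a receptor of granulocytes, gave 32.4, 39.3, 20.0 and 29.1. One by one, 10 of 14 leukocyte markers were above 0 in WT (median 0.30) and 11 of 14 in KO (1.21), so in WT the sum and the median differed in direction. The 5 measured erythrocyte markers summed to 5.07, 4.17, 12.4 and 47.7. Both sums were highest in KO DSS. Of 10 markers of acinar pancreas, 4 were measured, and 3 of these (Cpb1, Ctrb1 and Cel) were highest in WT DSS. Cytosolic ribosomal proteins, a bright set added for comparison, stood at a median of 0.24 in WT and of -0.09 in KO, which were 0.01 and 0.08 after quantile normalization. The part of these cell types in the values of the oxidative phosphorylation genes was not tested.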

How the data were processed

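RNA from whole colon (4 pools, 1 single-colour Agilent array each) was labelled with Cy3 from 200 ng of total RNA, per the labels' protocols. The deposited scanner files hold the authors' spot intensity values from Agilent Feature Extraction 11.5.1.1, per the submitters' processing notes, with probe positions on mm9, per the file headers. The deposited series value table holds a linear signal, which equals the processed signal of each array divided by a constant (its 75th percentile), and served as an alternative.

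For this work, log2 of the processed signal was taken minus log2 of each array's 75th percentile over non-control probes. Control spots and spots marked as outliers were left out, spots of a probe were averaged, and of several probes for a gene the brightest one well above background on all 4 arrays was used. Genes were named by the file's symbol, and 79 of the 83 were matched to RefSeq by accession and 4 by symbol. The members, the gene lists and the rule for named genes were chosen with earlier results of these data known. The genes named were, in complexes I, IV and V, the 3 lowest and 3 highest by the mean of both DSS ratios, and the 2 and 2 of complex III. Also named were all Sdh genes, restricted isoforms with their counterparts and the 3 genes at each end of the genotype comparisons. Genes whose probes differ in direction by over 1.5-fold and up to 4 per list with the largest mean DSS ratio were added. Ndufc1, Ndufa3, Ndufb11, Ndufv3, Cyc1, Csf3r, CYTB, COX1 and Esrra were named after their values were seen. The linear model was fitted with limma 3.58.1 in R 4.3.3 and tested on simulated data. Alternatives were median scaling, quantile normalization, normexp (offset 50) with quantile normalization, the series value table, the mean of probes, the filter on dim probes, a smaller fold, a trended robust variance and, chosen after seeing the data, genes of like brightness and the 73 subunits only.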

Additional observations from a re-analysis of the deposited data

Results flagged for a closer look

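The set stood on opposite sides of 0 in the 2 genotypes with DSS: the median ratio of DSS to naive was 0.38 in WT and -0.10 in KO, where all genes had -0.02 and -0.12. The genotypes also differed in opposite directions in naive and in DSS colon, with a median KO over WT ratio of 0.15 in naive colon and -0.30 with DSS. These are the same 4 arrays seen from 2 sides, so they are 1 pattern and not 2. Atp5k and Uqcrq were the genes that were at least 25% higher in KO in naive colon and at least 20% lower in KO with DSS, with ratios of 0.32 and -0.39 for Atp5k and 0.43 and -0.45 for Uqcrq. The difference was not tested in any of these cases, since each group has 1 array.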

How the results depend on the processing

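Each group is 1 array of 1 RNA mixed from 3 colons, so no value here has an error between mice, and the sign of a gene's ratio depended on the processing for 11 of 83 genes in WT, 17 in KO, 20 for KO over WT in naive colon and 7 with DSS. No paired analysis was possible because each group has 1 array. Median scaling moved the all-gene median from -0.02 to 0.12 in WT and from -0.08 to -0.17 for KO over WT with DSS. Of the recomputed values, 80 stayed within the spread of repeat spots or 1.5 times the count and 27 moved.

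The median of the set minus that of all genes was 0.40 in WT, and it was 0.18 after quantile normalization, 0.18 after normexp with quantile normalization and 0.13 against genes of like brightness. In KO it was 0.02, within the spread of repeat spots, and it changed sign to -0.082 against genes of like brightness. For KO over WT in naive colon it was 0.13, and 0.062, 0.063 and 0.057 under the same 3 alternatives, and with DSS it was -0.21, and -0.067, -0.079 and -0.098. For the difference of the DSS ratios it was -0.35, and -0.13, -0.15 and -0.15. Quantile normalization forces equal signal distributions on the 4 arrays, which removes any shift shared by bright probes.

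The 6 genes at least 1.5-fold higher in WT with DSS became 30 with median scaling, 1 with quantile normalization and 1 with normexp. With the smaller threshold (25% higher, 20% lower) they became 56, and the 0 lower genes became 3. In KO the 2 lower genes became 1 with normexp and 6 with the smaller threshold, and the 1 higher gene became 0 with normexp and 3 with the smaller threshold. For KO over WT in naive colon the 0 higher genes became 3 with the smaller threshold. With DSS the 1 lower gene became 2 with the mean of probes and 35 with the smaller threshold, and the 1 higher gene became 0 with quantile normalization and 0 with normexp. WT DSS was the highest pool for 64 of 83 genes with quantile normalization and for 64 with normexp. The linear model called 0 of the 83 genes under each alternative, and the unadjusted p was under 0.05 for DSS in at most 3 of them.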
